A study of Mus musculus with 14 samples.

Results

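Immunoglobulin transcripts were described in 14 RNA libraries of sorted Tregs, regulatory CD4 T cells that depend on the transcription factor Foxp3 and keep other immune cells in check. The genes were the heavy, kappa and lambda chain segments and Jchain. They were chosen by symbol and selected on the FPKM values described here (read fragments scaled to transcript length and to library size): a row counted where at least 1 of the 14 libraries was above 0. Of 22255 genes in the deposited table, 97 carried such a symbol and 45 met that rule, while the other 52 stood at 0 in every library. The choice used all groups together and took no account of which group held the signal, so being above 0 is not a result.

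All mice were 8 weeks old and all sorted cells were positive for Foxp3-YFP, a yellow fluorescent reporter fused to Cre recombinase and driven from the Foxp3 locus. The KO tumor group (3 libraries) came from mice labelled CD36floxed FoxP3-YFPCre+/-, in which Cre removes Cd36 in cells that express Foxp3. The WT tumor group (3 libraries, numbered 2 to 4) came from FoxP3-YFPCre+/+ mice, as did the lymph node group (LN, 4 libraries) and the spleen group (4 libraries). Both tumor groups were infiltrates of Yumm1.7 melanoma, a transplantable mouse melanoma line. Both genotypes carry the Cre reporter, and the labels give it as +/- in the KO mice and as +/+ in the WT mice. The labels do not say whether the replicates were separate animals, so the p-values measure the spread between these libraries, which may be technical.

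An antibody is built from heavy chains and either kappa or lambda light chains. In B cells, recombination joins a variable (V), a joining (J) and, in heavy chains, a diversity segment, and the joined exon is spliced to a constant region that sets the isotype: Ighm for IgM, the Ighg genes for IgG. Each B-cell clone uses its own V and J segments, and plasma cells, the antibody-secreting end stage, hold very large amounts of these mRNAs together with Jchain, the peptide that links IgM and IgA polymers. T cells do not assemble antibodies, but unrearranged heavy-chain constant transcripts without a V segment are known from T cells. V segments joined to J segments, light chains and Jchain are otherwise known from cells of the B lineage.

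The V segments that held nearly all heavy or kappa V reads of a KO tumor library are shown first. Sequences are those of the GENCODE M21 transcripts on GRCm38, read 5′ to 3′ on the coding strand. Igkv5-39 (chr6:69900424-69900977, minus strand) is given over the 287 bases on which its FPKM steps came out as whole reads, and the other V segments by their last 60 bases, next to the join. Capitals mark TATTACTGT, which spells tyrosine, tyrosine and the conserved cysteine at the end of the V segment.
Igkv5-39: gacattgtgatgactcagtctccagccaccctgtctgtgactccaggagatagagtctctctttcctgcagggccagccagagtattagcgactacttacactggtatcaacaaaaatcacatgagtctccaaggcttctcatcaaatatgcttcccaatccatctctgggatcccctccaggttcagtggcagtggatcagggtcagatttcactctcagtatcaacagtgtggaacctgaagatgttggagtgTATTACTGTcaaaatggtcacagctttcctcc
Igkv13-84: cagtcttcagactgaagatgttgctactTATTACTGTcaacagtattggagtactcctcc
Ighv14-4: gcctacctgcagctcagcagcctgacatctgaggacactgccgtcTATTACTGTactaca
Ighv1-18: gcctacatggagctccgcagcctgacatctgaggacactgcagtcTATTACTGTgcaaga
These 9 bases, searched on the coding strand, lay in the last 60 bases of 145 of the 346 V segments of M21 (41.9%) and of 12 of the 28 V segments among the 45 genes (42.9%). Igkv13-84 lies at chr6:68939602-68940067 on the plus strand. Ighv14-4 at chr12:114176438-114176867 and Ighv1-18 at chr12:114682632-114683065 are on the minus strand. The closest relatives in M21 were Igkv5-45 for Igkv5-39 (90.5% identity), Igkv13-85 for Igkv13-84 (96.3%), Ighv14-1 for Ighv14-4 (97.4%) and Ighv1-26 for Ighv1-18 (96.9%). None of these 4 relatives was among the rows analysed here, so a read from a relative cannot be told apart from a read of the named segment, and the names hold for the segment or its close copy.

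The kappa J segments that led in any library follow, and Ighj4, which led the heavy J reads of the KO tumor libraries. Capitals mark the codons of the conserved phenylalanine-glycine-X-glycine (kappa, TTCGGNNNNGGN) or tryptophan-glycine-X-glycine motif (heavy, TGGGGNNNNGGN).
Igkj5: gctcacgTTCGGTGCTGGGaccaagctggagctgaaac
Igkj1: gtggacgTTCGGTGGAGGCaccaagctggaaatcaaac
Igkj2: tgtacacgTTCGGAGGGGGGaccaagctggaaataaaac
Igkj3: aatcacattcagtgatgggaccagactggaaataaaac
Ighj4: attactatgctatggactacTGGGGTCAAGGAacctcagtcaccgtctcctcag
On the coding strand the kappa pattern stood in 4 of 5 kappa J segments, Igkj3 being the exception, and the heavy pattern in all 4 heavy J segments. The kappa J segments lie within chromosome 6, 70722562 to 70723927, just upstream of Igkc on the same strand, and Ighj4 lies at chr12:113428514-113428567.

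The 45 genes were 5 heavy constant genes, 4 heavy V, 4 heavy J, Igkc, 21 kappa V, 5 kappa J, Iglc2, 3 lambda V and Jchain. M21 lists 185 heavy V and 160 kappa V segments, of which the table held 22 and 54, so most V segments are not analysed here, nor are Ighd, Igha, Ighe, Iglc1, Iglc3 and Iglc4. Ighm and Igkc were above 0 in all 14 libraries, while 17 of the 45 were above 0 in a single library. Just inside the rule lay 7 V segments with at most 1 read in any library, among them Igkv8-26 with 0.235 FPKM in spleen 4, and just outside it the 52 rows at 0. The low values came out as whole reads: all 87 values of up to 20 reads came within 0.1 of a whole number. For genes with several annotated transcript lengths, the length giving the largest share of whole reads was used, so this share is in part set by that choice. A single read was worth 1.19 to 2.45 FPKM in the kappa J segments (38 to 39 bases), 0.118 to 0.325 FPKM in the kappa V segments and 0.0874 to 0.175 FPKM in Igkc (532 bases), so V and J values below a few FPKM rest on single reads.

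Estimated depth was 13.6 to 17.2 M reads in KO tumor, 10.7 to 14.4 M in WT tumor, 18.3 to 21.5 M in LN and 11.5 to 13.8 M in spleen. Foxp3 was above 0 in every library, at 25.7 to 42.4 FPKM in KO tumor, 3.54 to 11.97 in WT tumor, 15.4 to 32.3 in LN and 8.67 to 27.8 in spleen. Cd36, the targeted gene, was 0, 1.06 and 0 FPKM in KO tumor and listed at 0 in all WT tumor and LN libraries, with 0, 0.598, 4.47 and 2.17 FPKM in spleen. It therefore gives no check of the KO label.

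The summed immunoglobulin level was highest in the KO tumor libraries and in spleen 3. It was 19197, 2694 and 5311 FPKM in KO tumor 1 to 3, which was 3.39, 0.500 and 1.08% of all FPKM. In WT tumor 2 to 4 it was 514, 380 and 849 FPKM, in LN 1 to 4 836, 571, 781 and 908 FPKM, and in spleen 1 to 4 1461, 2195, 8161 and 1379 FPKM. All 3 KO tumor libraries lay above all WT tumor and LN libraries, and spleen 3 was 3.72 times the next spleen library. On the log2(sum + 1) scale the difference of group means was 3.56 for KO tumor against WT tumor, -2.16 for WT tumor against spleen, -0.47 for WT tumor against LN and -1.68 for LN against spleen, described without a test because the genes were chosen with these data in view. In sorted bulk RNA, more cells of a type and more RNA per cell cannot be told apart.

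**Figure D1:**
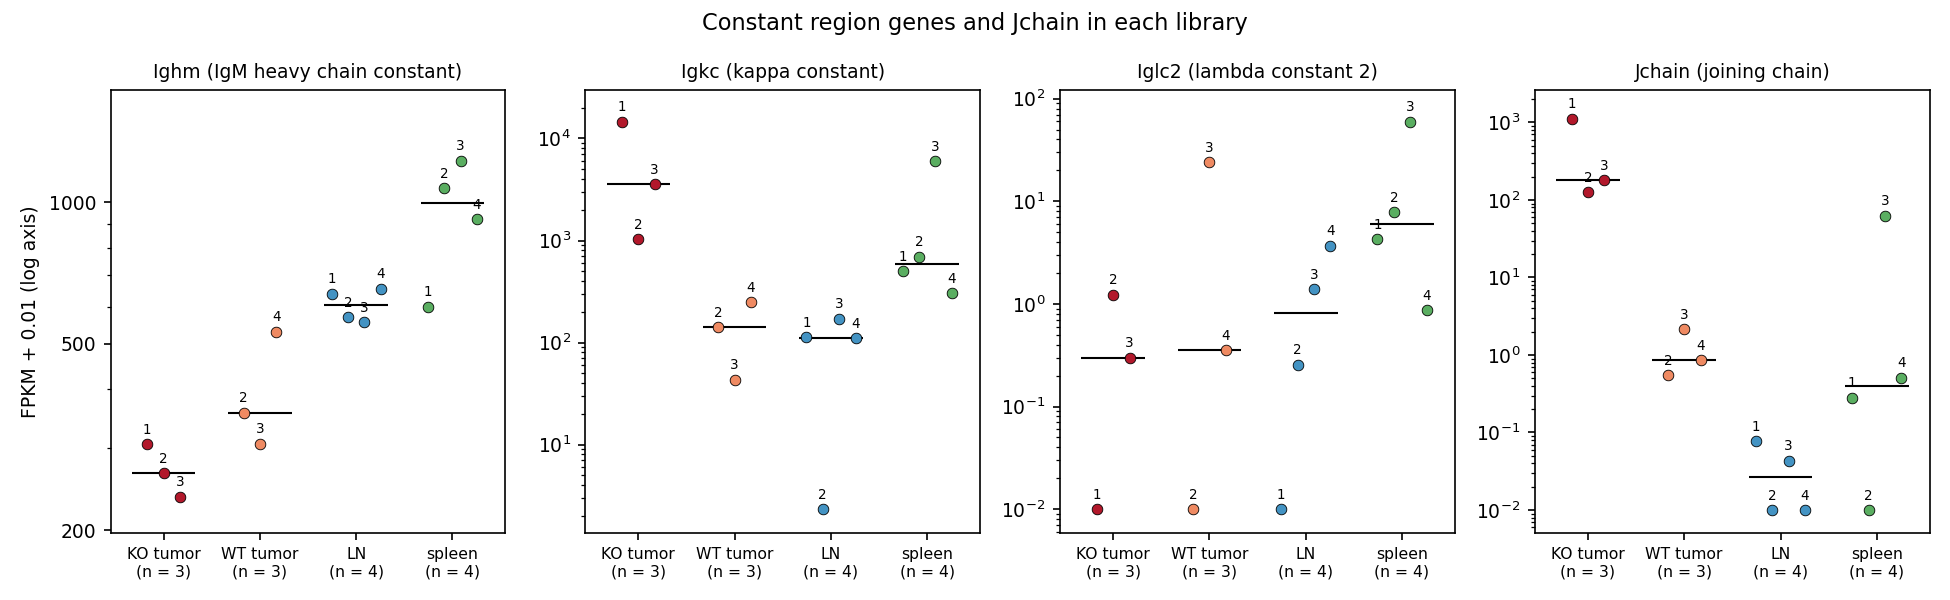
Level of Ighm, Igkc, Iglc2 and Jchain in each of 14 libraries, as FPKM + 0.01 on log axes, with points numbered by replicate and the line at each group's median; a gene listed at 0 sits at 0.01. Ighm spans 236 to 1227 FPKM, while Igkc spans 2.32 to 14662 FPKM and Jchain reaches 126 FPKM or more in the KO tumor libraries.

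Ighm (chromosome 12, 113418558 to 113422730), the IgM constant region, varied little beside the other genes: its highest library was 5.20 times its lowest. It had 305, 265 and 236 FPKM in KO tumor 1 to 3, 356, 306 and 530 in WT tumor 2 to 4, 639, 569, 556 and 654 in LN 1 to 4, and 600, 1072, 1227 and 922 in spleen 1 to 4. The groups followed the order KO tumor (269 ± 34.7), WT tumor (398 ± 118), LN (604 ± 49.5) and spleen (955 ± 268 FPKM, SD, n = 3, 3, 4 and 4). Neighbouring groups in this order nearly touch: KO tumor 1 and WT tumor 3 differed by about 1 FPKM (305.2 and 306.1), and spleen 1 lay inside the LN range.

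Ighm fell in WT tumor relative to spleen by 1.25 ± 0.24 on the log2(FPKM + 1) scale (SE, limma adjusted p = 0.0173), with each WT tumor library below each spleen library. It was the only gene called of the 9 immunoglobulin genes tested, against 1.9% called over all 9616 genes of that comparison. The call was lost without WT tumor 2 (adjusted p = 0.0647), without WT tumor 3 (0.0742), with the 2 groups fitted alone (0.0643) and with no filter on low values (0.0659), while the fall stayed between 1.09 and 1.48. The differences in the other comparisons did not pass: WT tumor against LN -0.64 ± 0.24 (adjusted p = 0.206), LN against spleen -0.61 ± 0.22 (adjusted p = 0.314) and KO tumor against WT tumor -0.53 ± 0.26 (adjusted p = 0.639).

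Igkc (chromosome 6, 70726435 to 70726966), the kappa light chain constant region, varied most in absolute level. It had 14662, 1031 and 3560 FPKM in KO tumor 1 to 3, 142, 43.2 and 249 in WT tumor 2 to 4, 112, 2.32, 171 and 110 in LN 1 to 4, and 497, 693, 5963 and 304 in spleen 1 to 4. Each KO tumor library was at least 4.14 times each WT tumor library, and the LN and WT tumor ranges overlapped. LN 2 held 25 Igkc reads beside an Ighm level of 569 FPKM, inside the range of the other LN libraries.
The log2 difference of Igkc between KO and WT tumor was 5.02 ± 0.95 (limma adjusted p = 0.126), and it passed only without KO tumor 2 (5.96, adjusted p = 0.0255). For LN against spleen it was -4.10 ± 1.19 (adjusted p = 0.199), for WT tumor against spleen -2.94 ± 1.29 (adjusted p = 0.324) and for WT tumor against LN 1.17 ± 1.29 (adjusted p = 0.714). This last difference was -0.15 without LN 2.

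The ratio of Igkc to Ighm FPKM put the KO tumor libraries and spleen 3 on one side. It was 48.0, 3.89 and 15.1 in KO tumor 1 to 3, and 0.397, 0.141 and 0.470 in WT tumor 2 to 4. LN 1 to 4 had 0.175, 0.00408, 0.308 and 0.168, and spleen 1 to 4 had 0.82897, 0.646, 4.86 and 0.330. Every KO tumor library was thus above 3 and every WT tumor and LN library below 0.5.

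Jchain (chromosome 5, 88519809 to 88527891), the joining chain of polymeric antibody, was high in all KO tumor libraries and in spleen 3. It had 1113, 126 and 180 FPKM in KO tumor 1 to 3, against 0.535, 2.14 and 0.847 in WT tumor 2 to 4. LN 1 to 4 had 0.0674, 0, 0.0334 and 0 FPKM, which is at most 2 reads, and spleen 1 to 4 had 0.272, 0, 62.3 and 0.500. The lowest KO tumor library was 58.9 times the highest WT tumor library. Jchain rose in KO tumor relative to WT tumor by 7.15 ± 0.81 on the log2(FPKM + 1) scale (SE, limma adjusted p = 0.00798). It passed the filter through the KO tumor libraries and WT tumor 3. The call held without each library in turn (adjusted p = 0.0180 to 0.0438), and was lost with the replicate block (adjusted p = 0.0538) and with no filter on low values (adjusted p = 0.171). With no filter, limma called no gene of the table (769 of 15208 had an unadjusted p under 0.05). In the comparisons among WT tumor, LN and spleen Jchain reached 1 FPKM in fewer than 3 libraries and was not tested.

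For KO tumor against WT tumor 2 of the 6 immunoglobulin genes tested were called, Jchain and Ighj4, both higher, against 0.28% called over 8210 genes. Ighj4 passed the filter only through the KO tumor libraries, so its call adds no support. It had 185, 437 and 30.2 FPKM in KO tumor 1 to 3 and was at 0 in all WT tumor libraries. With WT tumor set to 3 reads per library (mean 4.39 FPKM), the KO tumor mean of 217.5 FPKM was 49.6 times higher. This ratio is of means, and KO tumor 3 lay far below its group mean. In LN 4 Ighj4 had 40.4 FPKM and in spleen 1 15.4 FPKM.

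For WT tumor against LN and for LN against spleen none of the 9 immunoglobulin genes tested was called by limma. Over all genes 3.04% and 0.499% were called there. An unadjusted limma p under 0.05 was found for 1 and 3 of the 9, against 1504 and 997 of all 9616 genes. In LN against spleen those 3 were Igkc, Ighm and Igkj2, all lower in LN.

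**Figure D2:**
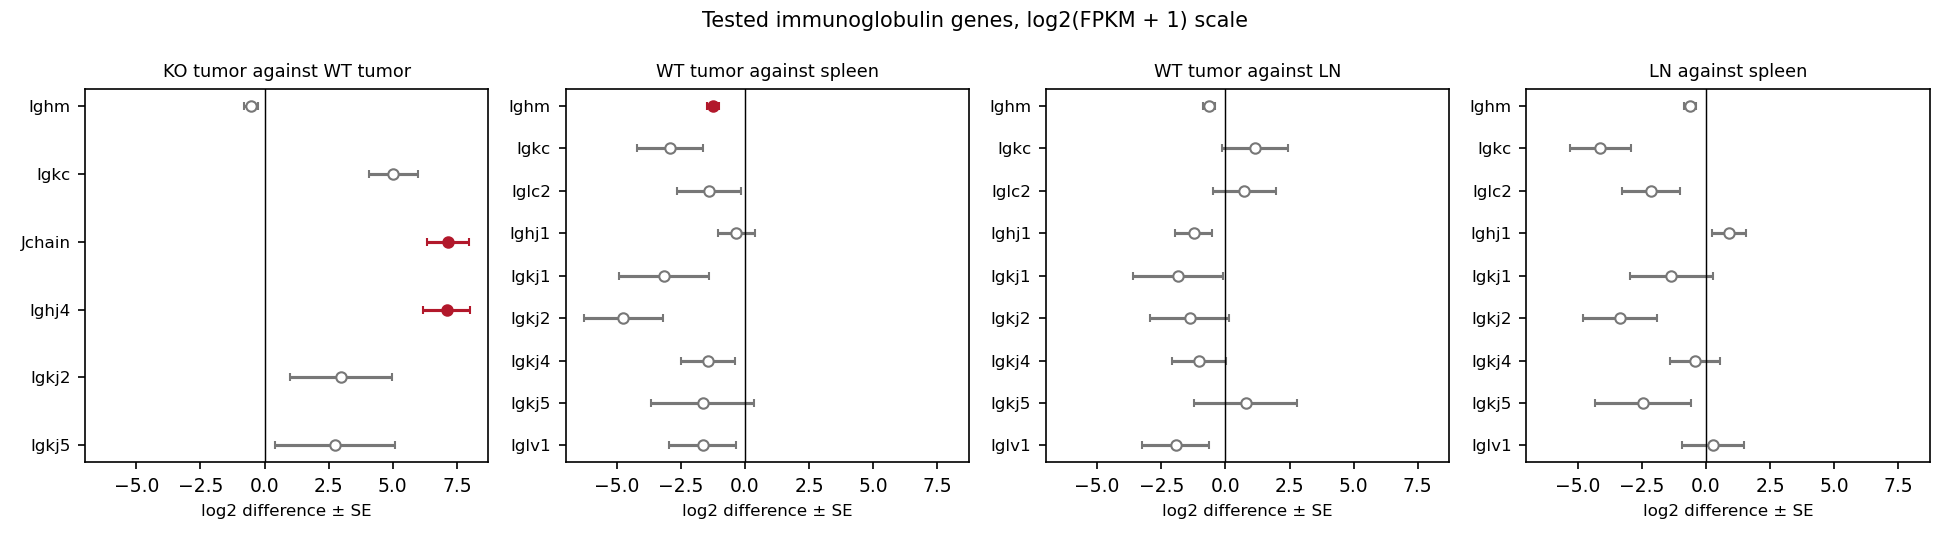
Log2 differences on the log2(FPKM + 1) scale with their SE for the 6 or 9 immunoglobulin genes tested in each comparison; filled red points have a limma adjusted p under 0.05, open grey points do not. Ighm is past the threshold in WT tumor against spleen, Jchain and Ighj4 in KO tumor against WT tumor, and intervals of the J segments are wide.

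The make-up of the signal differed as much as its size. Kappa segments held 90.8, 59.4 and 91.6% of the summed FPKM in KO tumor 1 to 3, and 28.0, 12.5 and 37.3% in WT tumor 2 to 4. In LN 1 to 4 the kappa share was 20.9, 0.430, 23.7 and 17.1%, and in spleen 1 to 4 it was 54.8, 50.6, 82.3 and 33.1%. Heavy-chain genes made up 3.37, 35.3 and 5.02% in KO tumor, 62.5 to 80.6% in WT tumor, 76.1 to 99.5% in LN and 15.9 to 66.8% in spleen. Most of this heavy share was Ighm in the WT tumor, LN and spleen libraries, where heavy V segments reached at most 0.280 FPKM outside LN 4 (39.3 FPKM).

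**Figure D3:**
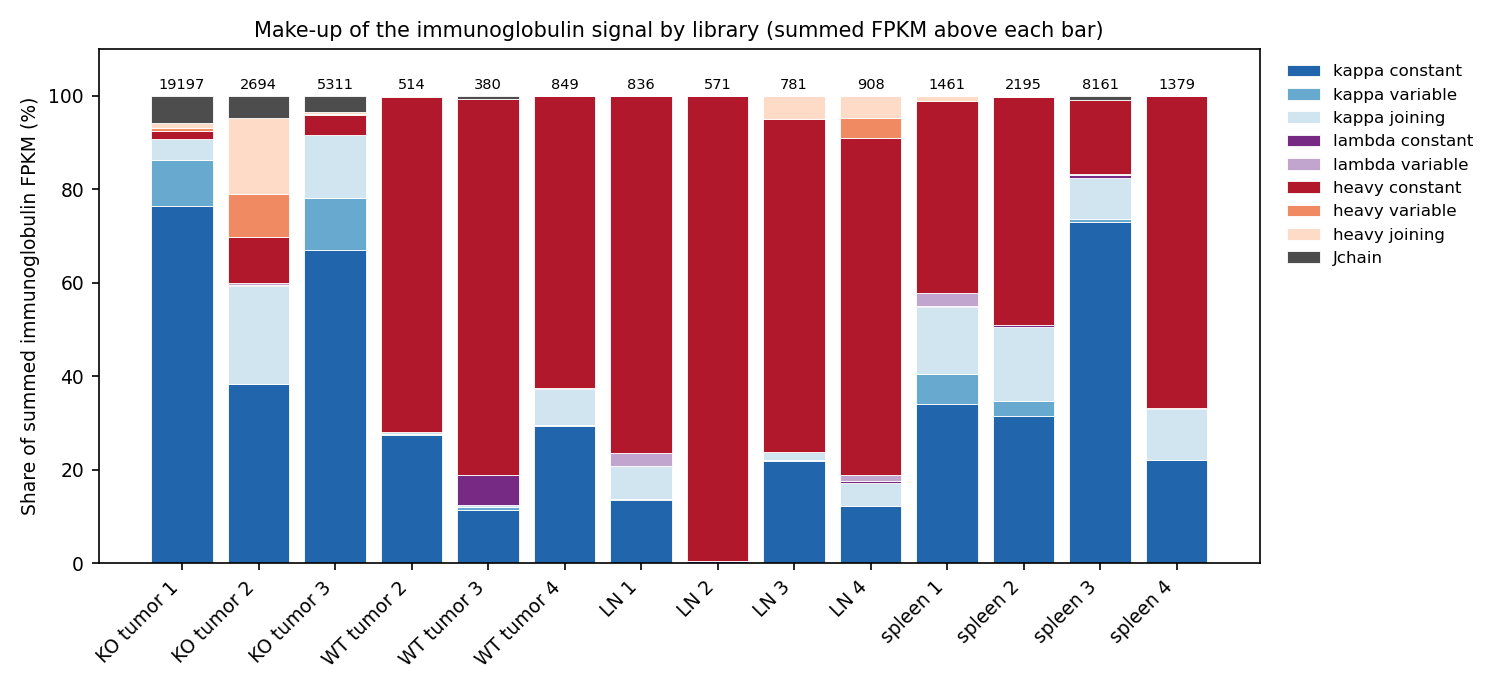
Share of the summed immunoglobulin FPKM in each library by chain and segment, in percent, with the sum above each bar. Kappa segments fill most of the bars of the KO tumor libraries and spleen 3, and the heavy constant genes most of the bars of WT tumor and LN, up to 99.5% in LN 2.

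Lambda chain was a small part of the summed level, but only 1 of the 4 lambda constant genes and 0 of the 5 lambda J segments of M21 were analysed here. Its share therefore cannot be set against that of kappa, for which Igkc and all 5 J segments were included. Iglc2 (chromosome 16), the lambda constant region in the table, had 0, 1.22 and 0.288 FPKM in KO tumor 1 to 3, and 0, 24.1 and 0.343 FPKM in WT tumor 2 to 4. LN 1 to 4 had 0, 0.244, 1.38 and 3.69 FPKM, and spleen 1 to 4 had 4.25, 7.78, 59.8 and 0.862 FPKM. WT tumor 3 and spleen 3 stood apart from their groups. In WT tumor 3 Iglc2 was at 55.7% of the Igkc level, whereas in spleen 3, with the highest Iglc2, it was at 1.003%. Its group differences did not pass in any comparison where it was tested (limma adjusted p 0.570 to 0.828), and that of WT tumor against LN was 0.74 with all libraries and -0.74 without WT tumor 3.
Iglv1, a lambda V segment, had 8.53, 12.6 and 0 FPKM in KO tumor 1 to 3. It reached 36.2 FPKM in spleen 1 and 20.2 in LN 1, and was at 0 in LN 2, LN 3, spleen 2 and spleen 4. Iglv2 accompanied it with fewer reads, for example 21 beside 187 in spleen 1 and 13 beside 168 in LN 1, and the 2 segments are 96.7% identical, so the split between them is uncertain. Iglv3, which is 70.7% identical to Iglv1, reached 18.4 FPKM in spleen 3, with 97 reads beside 12 of Iglv1.

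Of the class-switched isotypes only IgG could be read, and above a few reads it was confined to 2 libraries. Igha and Ighe were not analysed here, so nothing can be said of IgA or IgE in any library. Spleen 3 held 54.9 FPKM of Ighg2c (920 reads), 12.7 of Ighg3 (424 reads) and 2.08 of Ighg2b (32 reads). WT tumor 2 held 13.1 FPKM of Ighg2b (157 reads). Outside these, Ighg2c had at most 2 reads, Ighg2b at most 1, Ighg3 none, and Ighg1 only 2 reads, in KO tumor 1. The KO tumor libraries, with the highest Jchain, thus held 3 IgG reads in all among the isotypes analysed here. Where a count is 0 the limit that 3 reads allow was 0.0578 to 0.116 FPKM for Ighg3 and 0.115 to 0.230 FPKM for Ighg2c, for counting error only.

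Most of the abundant variable segments were so in 1 library. Of the 28 V segments 11 reached 10 FPKM, 9 of them in a single library, while Igkv6-32 did so in 2 libraries and Iglv1 in 4. Another 14 of the 28 had at most 10 reads in any library. V reads summed to 10108, 1212 and 3496 in KO tumor 1 to 3, against 2, 11 and 10 in WT tumor 2 to 4. LN 1 to 4 had 198, 1, 8 and 346 V reads, and spleen 1 to 4 had 653, 313, 318 and 1. The KO and WT tumor libraries therefore did not overlap, while each of the LN and spleen libraries had fewer than any KO tumor library.

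**Figure D4:**
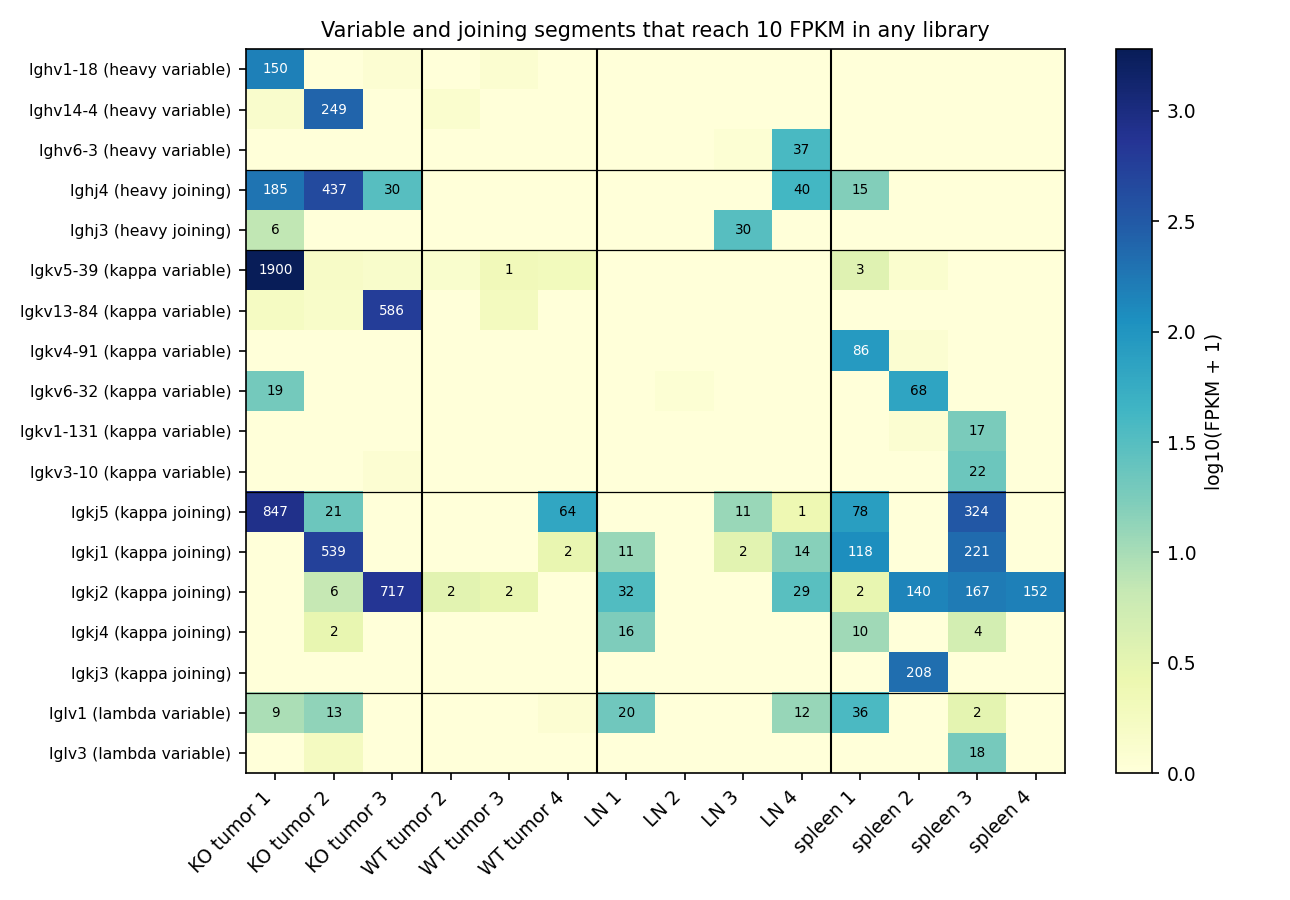
FPKM of the 18 variable and joining segments that reach 10 FPKM in any library, coloured as log10(FPKM + 1), with values of 1 FPKM or more printed; vertical lines part KO tumor, WT tumor, LN and spleen. Dark cells include Igkv5-39 at 1900 FPKM in KO tumor 1 and Igkv13-84 at 586 in KO tumor 3.

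In KO tumor 1 the kappa reads came almost wholly from Igkv5-39, the segment printed in full above: 9154 of 9276 kappa V reads, or 98.7% (95% Wilson interval 98.4 to 98.9%), at 1900 FPKM. Its J reads were all Igkj5 (540 of 540, 847 FPKM). The heavy V reads were Ighv1-18 in 769 of 771 cases (150 FPKM), with Ighj4 in 168 of 173 heavy J reads. A second kappa V segment, Igkv6-32, had 118 reads (19.2 FPKM).

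KO tumor 2 was led by another heavy V and another kappa J segment. Ighv14-4 took all 1126 heavy V reads (249 FPKM), and Ighj4 all 320 heavy J reads (437 FPKM). Of its 293 kappa J reads 278 were Igkj1, or 94.9% (95% Wilson interval 91.7 to 96.9%), at 539 FPKM. Its kappa V reads numbered only 5, so that the kappa V sum was 0.110% of Igkc, against 13.1% in KO tumor 1 and 16.5% in KO tumor 3.

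KO tumor 3 was led by Igkv13-84, with 3491 of 3494 kappa V reads (99.9%, 95% Wilson interval 99.7 to 100%) at 586 FPKM, and by Igkj2, with all 480 kappa J reads (717 FPKM). Its heavy V reads numbered 1 and its heavy J reads 28, all Ighj4. Across the KO tumor libraries, then, the leading kappa J segments differed each time, and Ighj4 led the heavy J reads in all 3. KO tumor 1 and 3 had different leading kappa V segments, while the 5 kappa V reads of KO tumor 2 had no leader, with 2 reads each of Igkv13-84 and Igkv5-39.

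The 4 V segments printed above were near absent elsewhere, while the J segments were not. Outside their leading libraries, Igkv5-39, Igkv13-84, Ighv14-4 and Ighv1-18 together had 39 reads: 28 in the other tumor libraries, 0 in LN and 11 in spleen. Igkv5-39 had 2 reads each in KO tumor 2 and 3, 1, 4 and 4 in WT tumor 2 to 4, and 10 and 1 in spleen 1 and 2. Igkv13-84 had 4 and 2 reads in KO tumor 1 and 2 and 4 in WT tumor 3, the sole tumor library of WT mice with any. This tally was chosen after the values were seen.

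The WT tumor libraries had few reads of V and J segments, and gene-level values do not show whether these were joined. WT tumor 4 held 35 Igkj5 reads (63.9 FPKM) among 36 kappa J reads, WT tumor 2 and 3 held 1 kappa J read each, and no WT tumor library held a heavy J read. Their leading kappa V segments rested on 1 read of Igkv5-39 in WT tumor 2, on 4 reads each of Igkv13-84 and Igkv5-39 in WT tumor 3, and on 4 reads each of Igkv4-71 and Igkv5-39 in WT tumor 4.

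Among the LN libraries, LN 4 stood out with Ighv6-3 at 36.7 FPKM (240 of 257 heavy V reads, the rest Ighv6-6) and with 40 Ighj4 reads. LN 1 had 168 Iglv1 reads and 15 reads of Igkv6-13, with 27 Igkj2, 13 Igkj4 and 9 Igkj1 reads. LN 3 had 31 Ighj3 and 10 Ighj1 reads, and 7 kappa V reads led by Igkv4-57 (3). LN 2 had a single V read, of Igkv6-32, and no J read at all.

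In spleen, 3 of the 4 libraries had a leading kappa V segment of their own. Spleen 1 was led by Igkv4-91 (86.4 FPKM, 408 of 445 kappa V reads, 91.7%, 95% Wilson interval 88.7 to 93.9%). Spleen 2 was led by Igkv6-32 (67.5 FPKM, 304 of 313 reads). Its 164 kappa J reads were 97 of Igkj3 (208 FPKM), the only Igkj3 reads in the series, and 67 of Igkj2 (140 FPKM). Spleen 3 had Igkv3-10 (21.6 FPKM, 107 reads) and Igkv1-131 (17.4 FPKM, 87 reads) side by side, and 4 kappa J segments with 170 reads of Igkj5, 116 of Igkj1, 90 of Igkj2 and 2 of Igkj4. Spleen 4 had 68 Igkj2 reads and a single kappa V read, of Igkv8-26. The kappa V reads of spleen 3 amounted to 0.690% of its Igkc level, against 19.2% in spleen 1.

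Kappa V segments lie in both orientations relative to Igkc. Of the 21 kappa V segments above 0, 16 were on the minus strand, opposite to Igkc (76.2%), against 40 of the 54 in the table (74.1%). Igkv5-39 is of the opposite and Igkv13-84 of the same orientation. Both V pseudogenes in the table were at 0 in every library.

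Other B-lineage genes were read from lists chosen, like the segments, with earlier results of these data known. B-cell surface and receptor genes, unlike Igkc and Jchain, had overlapping levels in the tumor groups. Their summed level was 34.3 to 115 FPKM in KO tumor, 28.7 to 130 in WT tumor, 92.7 to 111 in LN and 205 to 360 in spleen. Pax5, the B-cell identity factor that plasma cells switch off, stayed at or below 0.0968 FPKM in all tumor and LN libraries and was 2.08, 4.31, 0.933 and 0.0109 in spleen. Cd79a, a signal chain of the B-cell receptor, was 9.77, 1.52 and 2.96 FPKM in KO tumor, 3.71, 0.357 and 0.952 in WT tumor, 0.187 to 4.12 in LN and 14.3 to 35.6 in spleen.

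In WT tumor against spleen 3 of the 12 tested genes of this list fell and none rose, among them Fcmr, the IgM Fc receptor (-4.62 ± 0.90, limma adjusted p = 0.0185), and Cd79a (-3.46 ± 0.67, adjusted p = 0.0182). Over all genes 1.9% were called, and the median difference of the list was -1.43, against -0.07 over all genes. In LN against spleen 2 of 12 fell, among them Cd79a (-3.25 ± 0.62, adjusted p = 0.0355), against 0.499% of all genes called, with a list median of -1.22 against 0.02. None of the 12 was called in WT tumor against LN, and none of the 8 tested in KO tumor against WT tumor, where the list median was -0.41 against 0.07. The Cd79a call of LN against spleen was lost in 11 of 15 alternatives, and that of WT tumor against spleen in 4 of 14, with adjusted p up to 0.111. Fcmr was lost in 5 of 14 (up to 0.0689).

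Of the B-lineage transcription factors, 1 of the 8 tested was called in WT tumor against LN, against 3.04% of all genes. This was Irf8, which acts in B and myeloid cells and rose in WT tumor relative to LN (2.36 ± 0.51, limma adjusted p = 0.0213). It had 22.8, 59.8 and 47.8 FPKM in WT tumor 2 to 4, against 12.2, 5.55, 8.96 and 3.84 in LN 1 to 4. The call was lost in 5 of 14 alternatives (adjusted p up to 0.0970). No factor of this list was called in the other comparisons. Of the recombination and surrogate light chain genes, Vpreb3 fell in WT tumor relative to spleen (-2.72 ± 0.65, limma adjusted p = 0.04999, lost in 10 of 14 alternatives), but it passed the filter only through the spleen libraries, so its call adds no support. It was 0 in every WT tumor and LN library, and 18.3, 1.14, 4.05 and 8.11 FPKM in spleen. Rag1 and Rag2, the recombinase genes, were at 0 in all 14 libraries.

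The plasma cell and secretion list had no call among its 8 tested genes in any comparison, and its median for KO tumor against WT tumor was 0.25 against 0.07 over all genes. Slamf7 (-1.48), Ell2 (-0.62) and Creld2 (-0.53) were lower in KO tumor than in WT tumor, and the other tested genes of the list higher. The following genes of the list were chosen after their values were seen. Mzb1, a chaperone of marginal zone B and plasma cells, had 15.3, 6.60 and 36.5 FPKM in KO tumor 1 to 3, against 0.309, 0 and 0.0767 in WT tumor 2 to 4. It also had 0.0837, 21.5, 74.8 and 0 FPKM in spleen 1 to 4 and at most 0.0546 in LN. Mzb1 passed the filter only through the KO tumor libraries, and its log2 difference of KO tumor against WT tumor was 3.89 ± 0.80 (limma adjusted p = 0.126). Tnfrsf17, the survival receptor BCMA of plasma cells, was above 0 in KO tumor 2 and 3 alone (1.18 and 4.36 FPKM). Fkbp11, a secretory chaperone, was 10.9, 0.101 and 0 FPKM in KO tumor 1 to 3, and 0, 0.102 and 0 in WT tumor 2 to 4. It was 0.827 FPKM in LN 3 and 0 in the other LN libraries and every spleen library. Sdc1, the plasma cell marker CD138, stayed at or below 0.117 FPKM in every library, and Prdm1, which encodes the regulator Blimp-1 of plasma cells and effector Tregs, had 13.4, 9.30 and 13.7 FPKM in KO tumor against 16.1, 10.4 and 7.62 in WT tumor.

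**Figure D5:**
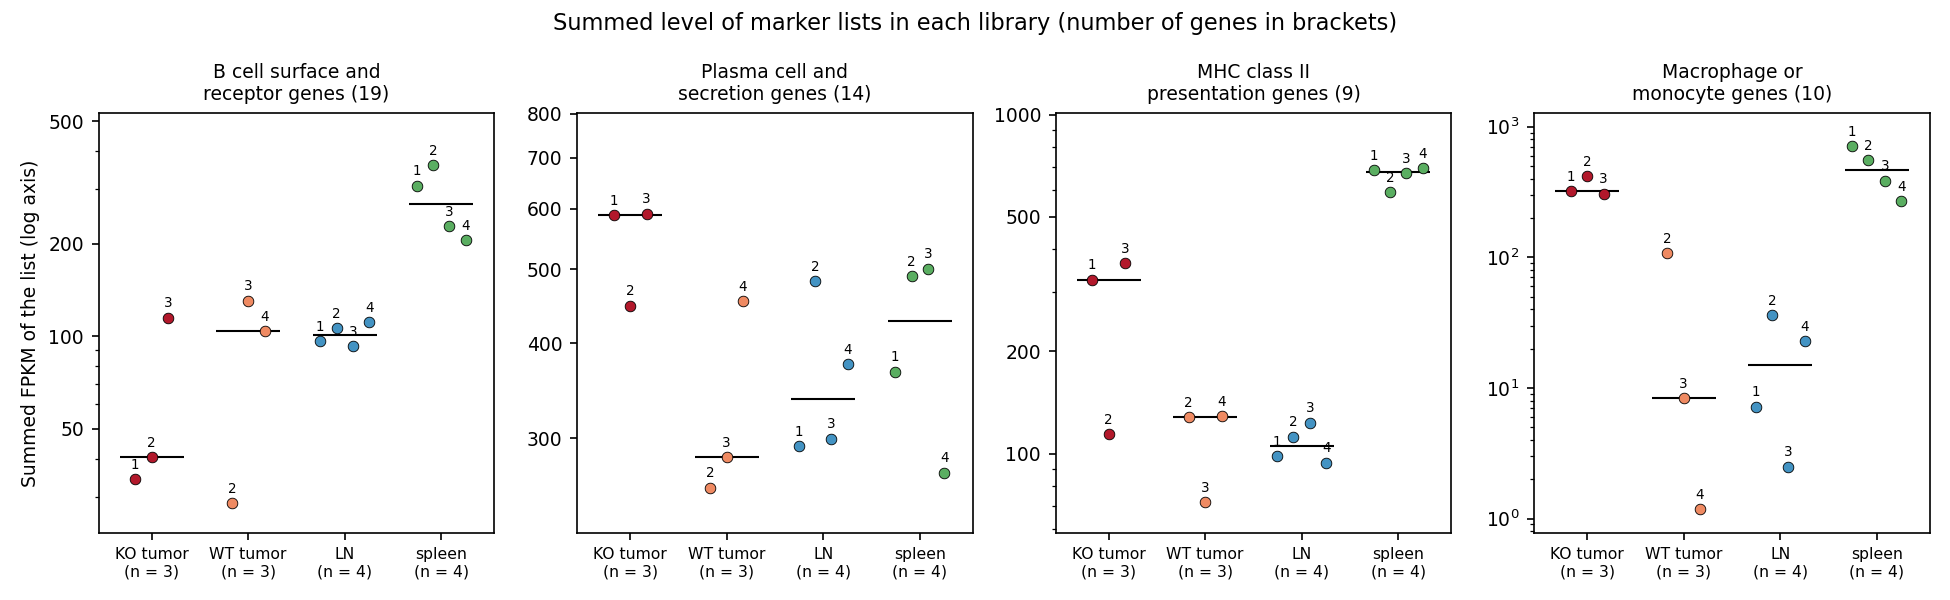
Summed FPKM of 4 marker lists in each library on log axes, with points numbered by replicate and the line at each group's median. Spleen lies highest for the B-cell and MHC class II lists, and the KO tumor libraries lie at 306 to 415 FPKM for the macrophage list against 1.18 to 107 in WT tumor.

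Some markers of other cell types differed in the same contrasts, while other lists overlapped between the tumor groups. The macrophage or monocyte list summed to 306 to 415 FPKM in KO tumor, 1.18 to 107 in WT tumor, 2.49 to 35.8 in LN and 269 to 709 in spleen. KO tumor 2 had the highest macrophage sum of its group (415 FPKM) and the lowest immunoglobulin sum (2694 FPKM). In spleen 1 these sums were 709 and 1461 FPKM, and in spleen 3 they were 385 and 8161 FPKM. Of the 7 tested genes of the macrophage list 2 were called in KO tumor against WT tumor, against 0.28% of all genes. Tyrobp rose there (5.08 ± 0.67, limma adjusted p = 0.0158, lost in 6 of 12 alternatives), where the immunoglobulin sum was also higher. C1qb was also called there, but it passed the filter only through the KO tumor libraries, so its call adds no support; it had 74.6, 36.1 and 93.0 FPKM in KO tumor against 0.685, 0.615 and 0.128 in WT tumor. In WT tumor against spleen 4 of the 7 fell, against 1.9% of all genes called, and in LN against spleen 5 of the 7, against 0.499%. The MHC class II list, shared by B cells, dendritic cells and macrophages, summed to 114 to 364 FPKM in KO tumor, 71.9 to 129 in WT tumor, 93.9 to 123 in LN and 591 to 694 in spleen. H2-Eb1 and H2-DMb2 fell in WT tumor (adjusted p = 0.0218 and 0.00530) and in LN (0.00982 and 0.0281) relative to spleen, H2-Ab1 fell in LN relative to spleen (0.0281), and H2-Ob fell in WT tumor relative to LN (0.0193). Against spleen, the H2-Eb1 call was lost in 8 of 14 alternatives for WT tumor and 1 of 15 for LN, and the H2-DMb2 call in 0 of 14 and 9 of 15. The H2-Ab1 call was lost in 8 of 15 and the H2-Ob call in 5 of 14. The part of these markers in the immunoglobulin differences was not tested. Hemoglobin and other erythroid genes summed to 63.3 to 16427 FPKM in KO tumor and 225 to 11899 in WT tumor, so they overlapped between those groups. The CD8 T or NK list summed to 12.4 to 35.3 FPKM in KO tumor and 21.5 to 63.3 in WT tumor. For the dendritic cell list the sums were 2.06 to 20.6 and 2.66 to 12.6 FPKM.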

How the data were processed

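Smart-Seq2 RNA libraries of sorted Tregs were analysed from gene-level FPKM values deposited by the authors, 1 table per library. The unit was taken from the values and from the submitters' processing notes, which list the genome as mm10 (GRCm38) and the tools as Bowtie2 2.2.9, Cufflinks 2.2.1, TopHat2 2.1.1, Cuffdiff, DESeq2 and Trimmomatic. How multi-mapped or V(D)J-spanning reads were assigned is not given in the sources used here, and such reads can be lost or shared between near-identical segments. The design allowed for counts, but the unit is FPKM, so the branch for normalized values was used.

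Positions, lengths and sequences came from GENCODE M21 (59 of 22255 identifiers unmatched). Steps between low values times transcript length gave reads per library (10.7 to 21.5 M), with 92.3 to 96.0% of low values whole within 0.1 read. Intervals and 3-read limits cover counting error only.

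Robust limma-trend (limma 3.58.1, R 4.3.3) was fitted to log2(FPKM + 1) over all genes with at least 1 FPKM in at least 3 libraries of the fit: 9616 genes in the 11 WT tumor, LN and spleen libraries and 8210 in the 6 tumor libraries. This scale understates changes of low genes. Benjamini-Hochberg adjustment ran over all tested genes, with a threshold of 0.05. The script was tested on simulated data. Comparisons that share a group (WT tumor, LN or spleen) share its libraries. The members and lists were chosen with earlier results of these data known. Named were all constant genes, every member called, the 5 V segments per chain with the highest mean, each library's leading heavy and kappa V segment, and called genes of the B-lineage lists, of which some are not reported here. Alternatives were another pseudocount, no filter, other sets of libraries, array weights, a replicate block, scaling to protein-coding genes and leaving out each library. Summaries used Python 3.11.15, pandas 2.3.3, scipy 1.17.1 and Biopython 1.88.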

Additional observations from a re-analysis of the deposited data

Results flagged for a closer look

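In groups of 4 libraries (LN and spleen), 24 values of single libraries lay far from the other 3 by Dixon's criterion, in 39 gene and group pairs examined. Chance flags about 1 in 20, and a gene that is near 0 in 3 libraries is flagged whenever the fourth has signal. Groups of 3 (KO tumor and WT tumor) were not examined.

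Spleen 3 accounted for 11 of the 24 values. Its summed level was 8161 FPKM and its kappa sum 6721 FPKM, with Igkc at 5963 FPKM. Jchain stood at 62.3 FPKM, Ighg2c at 54.9, Ighg3 at 12.7 and Ighg2b at 2.08 FPKM. Iglc2 was at 59.8 FPKM, Iglv3 at 18.4, Igkv3-10 at 21.6 and Igkv1-131 at 17.4 FPKM. Mzb1 was also highest there, at 74.8 FPKM.

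Spleen 1 stood apart for Igkv4-91 (86.4 FPKM), Iglv1 (36.2), Ighj4 (15.4) and Igkv5-39 (2.64 FPKM), and on the low side for Igkj2 (1.94 FPKM, which is 1 read). Spleen 2 stood apart for Igkj3 (208 FPKM) and Igkv6-32 (67.5 FPKM).

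In LN, the kappa sum of LN 2 was 2.46 FPKM, against 155 to 185 FPKM in the other 3. LN 4 stood apart for Ighj4 (40.4 FPKM) and Ighv6-3 (36.7 FPKM), LN 3 for Ighj3 (30.0 FPKM) and Igkj5 (11.01 FPKM), and LN 1 for Igkj4 (16.1 FPKM).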

How the results depend on the processing

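For WT tumor against spleen 1 immunoglobulin gene was called, 0 with no filter and with the 2 groups alone, and 0 to 2 when a library was left out. For KO tumor against WT tumor 2 were called, 0 with no filter and 1 to 2 when a library was left out. WT tumor against LN and LN against spleen stayed at 0 under every alternative run. Same-numbered libraries showed no shared deviation (correlations -0.0268 to -0.000542, against highest values of 0.00162 to 0.0248 with other numbers). All of these are near 0, so they cannot show whether same-numbered libraries came from 1 animal. The replicate block left 1 gene called for WT tumor against spleen, 0 for the LN comparisons and 0 for KO tumor against WT tumor. Jchain had a limma adjusted p of 0.0538 in that last comparison. Without a KO tumor library Ighj4 did not pass the filter and gave no value. Leaving out a tumor library of either genotype moved the KO tumor against WT tumor count over 1.5 times except for KO tumor 2, through Ighj4 alone.

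The summed level over variable segments only differed by 8.01 (KO tumor against WT tumor), -1.49 (WT tumor against LN) and -3.47 (against spleen) on the log2 scale. Without the member highest in each library, which is Ighm or Igkc, it was -3.63 for LN against spleen and turned to 0.96 for WT tumor against LN. Both values lean on LN 2, which had 2.70 FPKM left without Ighm. LN 1, 3 and 4 had 196, 226 and 253 FPKM left, and WT tumor 74.0 to 318 FPKM. This setting was not run without LN 2, so the turn may rest on that library. Leaving out libraries gave a summed level of all members of 2.78 to 4.20 for KO tumor against WT tumor, -0.79 to -0.21 for WT tumor against LN, -2.47 to -1.58 for the same group against spleen and -1.96 to -1.10 for LN against spleen. For WT tumor against LN, leaving out libraries gave -0.15 (without LN 2) to 1.87 for Igkc and -0.74 (without WT tumor 3) to 1.59 for Iglc2. Over the whole table, WT tumor against LN had 182 genes higher and 110 lower, and 162 and 153 with protein-coding scaling, which moved the median of all genes by under 0.1. At 10.7 to 21.5 M reads, V and J values under a few FPKM rest on single reads; most V segments are not analysed here.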
